A study of Mus musculus with 4 samples.

Results

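The genes described here encode the nuclear-encoded subunits of the mitochondrial respiratory chain and the ATP synthase, with cytochrome c and the assembly factors that carry the complex I name. They were chosen by symbol alone: every row of the deposited table whose Ensembl identifier maps to a mouse symbol starting with Nduf, Uqcr, Atp5 or Cox4 to Cox8, or to Cyc1 or Cycs, without pseudogenes and predicted genes. This rule gave 91 of the 19840 genes in the table: 36 for complex I, 8 assembly factors of complex I, 10 for complex III and cytochrome c, 20 for complex IV and 17 for complex V. Ndufa4 and its paralog Ndufa4l2 were counted with complex IV, where the Ndufa4 product is known to reside.

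The cells were naive mouse embryonic stem cells grown in 2i/LIF (a pair of kinase inhibitors with leukaemia inhibitory factor), from the lines E14TG2a and R1. They carried a lentiviral short hairpin targeting Lncenc1, a long noncoding RNA (shLincenc1, 2 libraries) or a control hairpin (shCtrl, 2 libraries), and all had been under puromycin for 2 days. The cell line and the hairpin design behind each library are not given in the labels, and nothing says that replicates were separate cultures, so p-values measure the spread between these libraries, which may be technical. Strand-specific libraries were made from total RNA after removal of ribosomal RNA.

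For each gene the deposited table gives a single mean and fold change; it does not say which group is the numerator, so the groups are named by the targeted RNA. Lncenc1 had 6399.6 and 7249.7 normalized reads in one pair of libraries (Lncenc1-high, H1 and H2), against 2126 and 2121 in the other (Lncenc1-low, L1 and L2). Its log2 fold change of Lncenc1-high over Lncenc1-low in the authors' deposited table was 1.68 ± 0.19 (SE, DESeq2 adjusted p = 2.67e-16). If the hairpin lowered its target, Lncenc1-low is shLincenc1 and Lncenc1-high is shCtrl, but the table itself does not state it. Every fold change below is Lncenc1-high over Lncenc1-low, as deposited. The reads of each library were recovered from the deposited means and fold changes, as described under the processing, for 90 of the 91 genes; Atp5b is the exception.

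H1 held 26201407 recovered reads, H2 10859103, L1 11005533 and L2 10472708. The low pair varied more: over 8133 tested genes with a mean of at least 200, the SD of the log2 difference was 0.24 between H1 and H2 and 0.48 between L1 and L2. Over the 76 respiratory genes at that level it was 0.19 between H1 and H2 and 0.27 between L1 and L2. Naive stem cell markers were abundant, with summed normalized reads of 69741 and 66295 in Lncenc1-high and 59642 and 56549 in Lncenc1-low over 7 genes, of which 0 were called and 7 had a positive fold change. Fibroblast markers (5 genes) summed to 161 and 137 against 375 and 222, those of primitive endoderm (5 genes) to 104 and 67.7 against 139 and 157, those of trophoblast (4 of 5 in the table) to 217 and 443 against 166 and 708, and those of neuroectoderm (3 genes) to 755 and 448 against 837 and 733, in Lncenc1-high against Lncenc1-low. Mesendoderm markers (3 genes) summed to 206 and 507 in Lncenc1-high, against 121 and 85.3 in Lncenc1-low. Eomes is in both this sum and that of trophoblast. Fbn1 made up most of the fibroblast sum, with 140.1 and 110.4 in Lncenc1-high against 324.1 and 174.3 in Lncenc1-low. The scarce Thy1 was also lower in both high libraries, while Col1a1, Col1a2 and Col3a1 overlapped between groups. Nes made up most of the neuroectoderm sum, with 661.2 and 444.1 in Lncenc1-high against 804.7 and 672.3 in Lncenc1-low. Krt8 was the largest part of the trophoblast sum, with 99.6 and 213 in Lncenc1-high against 72.7 and 577 in Lncenc1-low. Cdx2, also in that sum, had 40.04 and 87.8 against 2.46 and 19.8 in the same order, without overlap. Its deposited log2 fold change was 2.51 ± 0.90 (SE, unadjusted p = 0.0052, DESeq2 adjusted p = 0.177). Krt8, Krt18 and Eomes overlapped between groups. Of primitive endoderm, Gata4 was higher in both high libraries, and Col4a1 and Dab2 were lower. Of these non-stem-cell markers 1 was called, T, with 162 and 427 normalized reads in Lncenc1-high against 70.2 and 37.1 in Lncenc1-low. Col3a1 was at 0 in H2 and L2, Gata6 and Sox1 at 0 in H2, and Mixl1 at 0 in L1 and L2. The part of these markers in the results below was not tested.

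The respiratory chain passes electrons from NADH through complex I to ubiquinone, from there through complex III to cytochrome c, and through complex IV to oxygen. Complexes I, III and IV pump protons out of the matrix, and the ATP synthase, complex V, lets them return through a ring of c subunits while its catalytic head makes ATP. Most subunits are nuclear genes translated in the cytosol and imported, while a small core is encoded by mitochondrial DNA, so each complex draws on both genomes. Naive stem cells are known to use respiration as well as glycolysis, while primed ones lean on glycolysis.

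Promoters of these genes are known to hold sites for NRF1, for ETS factors such as GABP and for YY1. Promoter sequences, RefSeq's 250 bases before and 50 after each gene's start (GRCm38.p6), were matched for 74 of the 91 genes; 4 with small p-values are shown first and then 3 that hold 1 kind of motif each, with motif letters in capitals. Cox5a, Cox7a2l and Atp5s have no capitals because none of the 3 motifs is in the window shown. Atp5s carries the symbol Dmac2l and Atp5f1 the symbol Atp5pb in that table.
Cox5a (chr9:57520982-57521281, plus strand): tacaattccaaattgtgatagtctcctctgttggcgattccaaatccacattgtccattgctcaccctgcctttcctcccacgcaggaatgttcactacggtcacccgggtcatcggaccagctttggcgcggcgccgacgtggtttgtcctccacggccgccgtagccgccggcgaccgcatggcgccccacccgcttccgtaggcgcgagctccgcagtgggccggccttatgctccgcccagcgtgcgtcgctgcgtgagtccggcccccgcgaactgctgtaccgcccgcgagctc
Cox7a2l (chr17:83514284-83514583, minus strand): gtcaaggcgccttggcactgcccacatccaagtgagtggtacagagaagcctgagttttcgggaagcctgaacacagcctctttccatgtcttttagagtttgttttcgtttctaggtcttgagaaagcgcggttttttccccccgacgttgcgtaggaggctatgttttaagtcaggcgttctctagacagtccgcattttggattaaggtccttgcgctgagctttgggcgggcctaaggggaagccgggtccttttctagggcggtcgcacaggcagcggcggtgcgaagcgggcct
Cox6b1 (chr7:30626065-30626364, minus strand): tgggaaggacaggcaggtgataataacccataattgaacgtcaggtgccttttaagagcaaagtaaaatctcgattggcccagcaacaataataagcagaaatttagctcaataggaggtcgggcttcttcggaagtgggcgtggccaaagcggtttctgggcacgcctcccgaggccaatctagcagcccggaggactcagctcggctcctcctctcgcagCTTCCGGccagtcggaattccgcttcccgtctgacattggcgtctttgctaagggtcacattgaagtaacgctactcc
Atp5s (chr12:69724695-69724994, plus strand): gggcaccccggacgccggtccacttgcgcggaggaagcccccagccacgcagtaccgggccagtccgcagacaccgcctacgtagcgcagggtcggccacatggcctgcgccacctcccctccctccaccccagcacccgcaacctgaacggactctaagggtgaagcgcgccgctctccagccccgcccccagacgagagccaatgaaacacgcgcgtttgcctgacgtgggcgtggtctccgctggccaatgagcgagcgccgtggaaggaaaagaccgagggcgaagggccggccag
Atp5g2 (chr15:102670998-102671297, minus strand): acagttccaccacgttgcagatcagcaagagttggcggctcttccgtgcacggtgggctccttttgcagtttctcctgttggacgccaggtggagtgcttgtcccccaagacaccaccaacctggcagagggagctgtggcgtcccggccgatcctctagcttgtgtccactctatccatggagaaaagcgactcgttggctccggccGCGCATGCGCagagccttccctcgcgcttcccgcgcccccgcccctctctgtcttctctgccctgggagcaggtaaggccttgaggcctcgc
Cox8a (chr19:7217567-7217866, minus strand): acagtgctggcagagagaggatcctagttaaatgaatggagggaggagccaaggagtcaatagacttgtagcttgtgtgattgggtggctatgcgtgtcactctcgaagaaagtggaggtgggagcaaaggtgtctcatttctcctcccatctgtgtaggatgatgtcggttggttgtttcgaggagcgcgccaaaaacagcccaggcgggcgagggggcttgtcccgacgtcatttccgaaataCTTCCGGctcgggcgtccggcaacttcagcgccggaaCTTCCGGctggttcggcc
Atp5f1 (chr3:105959214-105959513, minus strand): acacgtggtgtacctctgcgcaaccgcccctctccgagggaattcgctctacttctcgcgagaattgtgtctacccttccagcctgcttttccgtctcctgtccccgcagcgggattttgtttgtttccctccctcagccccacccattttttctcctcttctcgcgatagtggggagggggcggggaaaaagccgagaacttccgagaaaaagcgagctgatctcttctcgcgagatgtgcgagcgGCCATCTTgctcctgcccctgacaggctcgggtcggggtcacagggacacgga

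The motifs searched, on both strands, were GCGCATGC for NRF1, CCGGAAG for ETS factors and AAGATGGC for YY1. In Atp5g2 the NRF1 letters on the 2 strands overlap, which makes the longer run in capitals. The NRF1 letters were in 12 of 74 matched promoters (16.2%), against 3.05% of all 27025 promoters and 5.99% of those of tested genes. Those of YY1 were in 11 (14.9%), against 3.19% of all and 5.11% of tested genes' promoters. ETS letters were in 16 (21.6%), against 9.93% of all promoters and 19.6% of those of tested genes, so their share lies near that of expressed genes. Holders of the NRF1 letters were Cycs, Uqcrc1, Uqcr11, Cox6a1, Atp5g2, Atp5k, Atp5l, Ndufa6, Ndufa8, Ndufa11, Ndufaf4 and Ndufaf5. None of the 12 was called; the median log2 fold change in the authors' deposited table was -0.04 over these 12 and 0.09 over the other 61 tested genes with a promoter. For ETS letters the medians were 0.07 over 16 holders and 0.07 over 57 others, and for YY1 0.09 over 11 and 0.06 over 62.

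Most of these genes had similar levels in both groups. Of the 91 genes, 87 had a deposited adjusted p (the rest were 4 scarce complex IV isoforms), and 2 of the 87 were called at an adjusted p under 0.05: Ndufa4l2, higher in Lncenc1-high, and Cox5a, lower in Lncenc1-high. Of all 14070 tested genes 1.53% were called, 0.505% higher and 1.02% lower in Lncenc1-high, so the respiratory share of 2 in 87 lies near the background. At an unadjusted p under 0.05 there were 5 of 87, against 8.82% of all tested genes. The median log2 fold change was 0.07 over the 87 (52 positive, 35 negative) and -0.01 over all tested genes, both from the authors' deposited table. Without L2 the median of the respiratory genes was 0.015, and without L1 it was 0.11.

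The table bounds most of these genes closely. For 76 of the 87 the 95% interval of the deposited fold change lay within 2-fold in either direction, against 54% of all tested genes, and 80 of the 87 had a log2 fold change smaller than 0.5 in size. Abundant genes have narrower intervals, and the median of the mean normalized counts in the authors' deposited table was 1000.1 for the 87 and 310.1 for all tested genes. For 28 of 86 tested genes with recovered reads H1 and H2 both exceeded L1 and L2, against 20.6% of all tested genes, and the reverse held for 11, against 20.7%. Summed over the 90 genes other than Atp5b, normalized reads were 152509 and 149671 in Lncenc1-high, against 151276 and 140396 in Lncenc1-low. In this sum L1 lay among the high libraries and L2 below all. In these bulk samples fewer cells expressing a gene and less RNA per cell cannot be told apart.

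**Figure D1:**
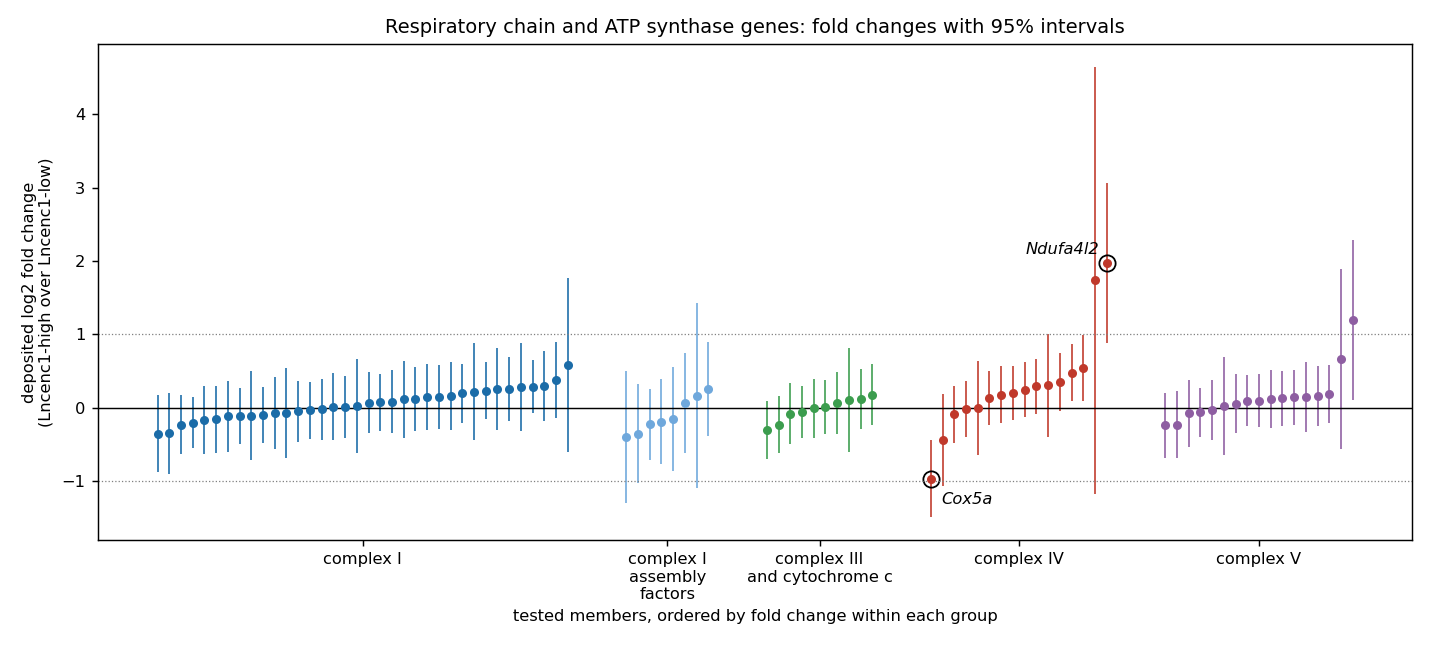
Deposited log2 fold change (vertical axis, Lncenc1-high over Lncenc1-low) with its 95% interval for the 87 tested genes, ordered within each group; dotted lines mark 2-fold either way and black circles the 2 called genes. Of the 87 intervals, 76 lie between the dotted lines; Cox5a and Ndufa4l2 lie at the ends of the complex IV series.

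**Figure D2:**
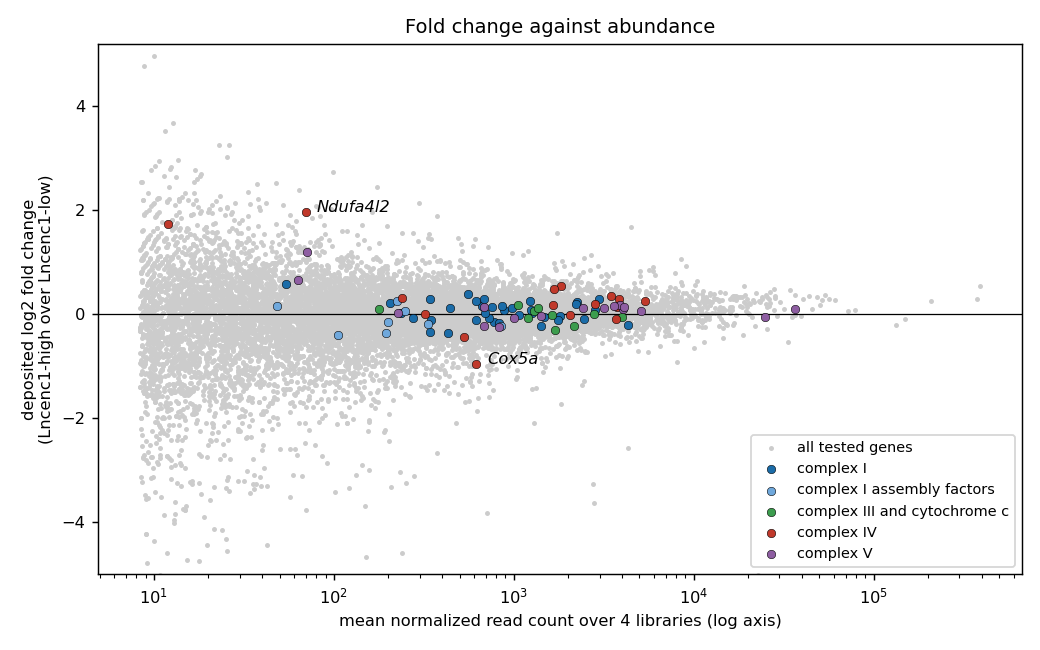
Deposited log2 fold change against the mean normalized read count (log axis) for all tested genes in grey and the respiratory genes in colour; 23 tested genes fall outside the plotted range of fold changes. The coloured points mostly follow the zero line at high abundance, and the called Ndufa4l2 has a mean of 70.2 and Cox5a of 619.

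Complex I, which oxidises NADH, was the largest group and held no call. None of its 36 genes was called by voom or by DESeq2 in the authors' deposited table, and none had an unadjusted p under 0.05. Of all tested genes voom called 0.0427% and DESeq2 1.53%, and 8.82% had an unadjusted p under 0.05 by DESeq2. For the calls by voom or DESeq2, 0 in a group of this size lies near the background. At an unadjusted p under 0.05, 0 of 36 lies below the share of 8.82%. The same shares stand beside the counts of the groups below. Deposited log2 fold changes of complex I ran from -0.35 to 0.58 around a median of 0.05. For 35 of the 36 the interval stayed within 2-fold; Ndufb2, at 75.5 and 55.2 normalized reads in Lncenc1-high against 46.8 and 40.8 in Lncenc1-low, is the exception. Summed complex I reads were 41023 and 41326 in Lncenc1-high, against 41222 and 39245 in Lncenc1-low, and the groups overlap.

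Ndufv2, an iron-sulfur subunit of the module that takes electrons from NADH, had 3266 and 3296 normalized reads in Lncenc1-high, against 2757 and 2619 in Lncenc1-low. Both high libraries exceed both low ones, by an amount that did not pass the test: the log2 fold change in the authors' deposited table was 0.29 ± 0.19 (SE, DESeq2 adjusted p = 0.771). Ndufb11, of the membrane arm, had 566 and 699 against 536 and 430.1, in Lncenc1-high against Lncenc1-low, and again did not overlap (0.39 ± 0.26, SE, in the authors' deposited table, DESeq2 adjusted p = 0.797). Ndufb6, also of the membrane arm, ran the other way with 379.9 and 379 in Lncenc1-high, against 444 and 525 in Lncenc1-low. In the authors' deposited table it had a log2 fold change of -0.35 ± 0.27 (SE, DESeq2 adjusted p = 0.863). Ndufa12, an accessory subunit and the complex I gene with the highest mean count, had 3967 and 4087 in Lncenc1-high, against 4654 and 4599.9 in Lncenc1-low (log2 -0.20 ± 0.18, SE, in the authors' deposited table, DESeq2 adjusted p = 0.934). The 32 other complex I genes lay between -0.35 and 0.58 on the log2 scale of the authors' deposited table, with unadjusted p-values of at least 0.215.

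Per kilobase of transcript, complex I messages covered a wide range in the same libraries. Ndufa7 had 4599.9 and 4593 normalized reads per kilobase in Lncenc1-high and 4255 and 3553 in Lncenc1-low, and Ndufa12 had 3574 and 3682 in Lncenc1-high and 4193 and 4144 in Lncenc1-low, so Ndufa7 lay above Ndufa12 in 3 libraries and below it in L2. At the low end Ndufb2 had 166 and 121 in Lncenc1-high and 103 and 89.6 in Lncenc1-low, on the same scale.

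The 8 assembly factors of complex I build the enzyme and are not part of it. None was called by DESeq2 or voom and 0 had an unadjusted p under 0.05; the median log2 fold change in the authors' deposited table was -0.17, with 3 positive and 5 negative values, and it was -0.07 when L1 was left out. They were scarce per length: the level ran from 44.3 normalized reads per kilobase for Ndufaf8 in L2 to 295 for Ndufaf4 in L1. Ndufaf6 had 162 and 179 normalized reads in Lncenc1-high, against 212 and 222 in Lncenc1-low, without overlap (log2 -0.35 ± 0.35, SE, in the authors' deposited table, DESeq2 adjusted p = 0.953). Ndufaf2, a paralog of Ndufa12 that holds its place during assembly, had 105 and 77.8 in Lncenc1-high, against 138 and 104 in Lncenc1-low, and H1 lay above L2. Ndufaf4 had 796 and 779 against 1069.7 and 767, in Lncenc1-high against Lncenc1-low, with L1 alone high. Ndufaf1 had 331 and 289.8 in Lncenc1-high and 322 and 387 in Lncenc1-low, which overlap.

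Complex III, the ubiquinol to cytochrome c step, was close to level, and the deposited intervals bound it: all 10 genes of the group had intervals within 2-fold. None was called by DESeq2 or voom, and 0 had an unadjusted p under 0.05. In the authors' deposited table their median log2 fold change was 0.00, with 5 positive and 5 negative values between -0.30 and 0.18. The core subunits Uqcrc1 and Uqcrc2 overlapped between groups, with 4021 and 3821 normalized reads of Uqcrc1 in Lncenc1-high against 4195 and 3963 in Lncenc1-low, and 2777 and 2853 of Uqcrc2 in Lncenc1-high against 2834 and 2745 in Lncenc1-low. Uqcrfs1, the Rieske iron-sulfur protein, had 1092 and 1143 in Lncenc1-high, against 993 and 979 in Lncenc1-low, and the groups do not overlap (log2 0.18 ± 0.21, SE, in the authors' deposited table, DESeq2 adjusted p = 0.981).

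Cycs, the electron carrier cytochrome c, had 1532 and 1520.4 normalized reads in Lncenc1-high, against 1787 and 1984 in Lncenc1-low. Both low libraries exceed both high ones, and the difference did not pass the test (log2 -0.30 ± 0.20, SE, in the authors' deposited table, DESeq2 adjusted p = 0.779). Uqcrb, which lines the ubiquinone site, had 1923 and 2042 in Lncenc1-high, against 2168 and 2491 in Lncenc1-low, also without overlap (-0.23 ± 0.20, SE, in the authors' deposited table, DESeq2 adjusted p = 0.915). Both genes have 3 near-identical pseudogene copies in the genome that were not rows of the table, so reads from those copies could have been placed on either gene or left out. Summed reads of the group were 17143 and 16993 in Lncenc1-high, against 17759 and 17590.0 in Lncenc1-low.

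Complex IV, cytochrome c oxidase, held both called genes and 4 of the 5 genes with an unadjusted p under 0.05. Its 16 tested genes had a median log2 fold change of 0.22 in the authors' deposited table, with 11 positive and 5 negative values. H1 and H2 both exceeded L1 and L2 for 9 of the 16, and the reverse held for 1, Cox5a; the background shares are 20.6% and 20.7%. Summed normalized reads were 34068 and 34055 in Lncenc1-high, against 32229 and 27748 in Lncenc1-low, a ratio of 1.14 between the group means. L1 lay closer to the high pair than to L2. Without L2 the median log2 fold change was 0.135, and without L1 it was 0.25. L2 also had the lowest sum over the 11 mitochondrially encoded genes with recovered reads. The sums were 59211 and 58392 in Lncenc1-high, against 59068 and 43164 in Lncenc1-low. They leave out mt-Co1 and mt-Co3, whose reads were not recovered and whose deposited means, 209023 and 78590, were the larger part of the signal. Of the 11 genes, mt-Atp8 was lowest in L1 and mt-Nd6 in H2.

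**Figure D3:**
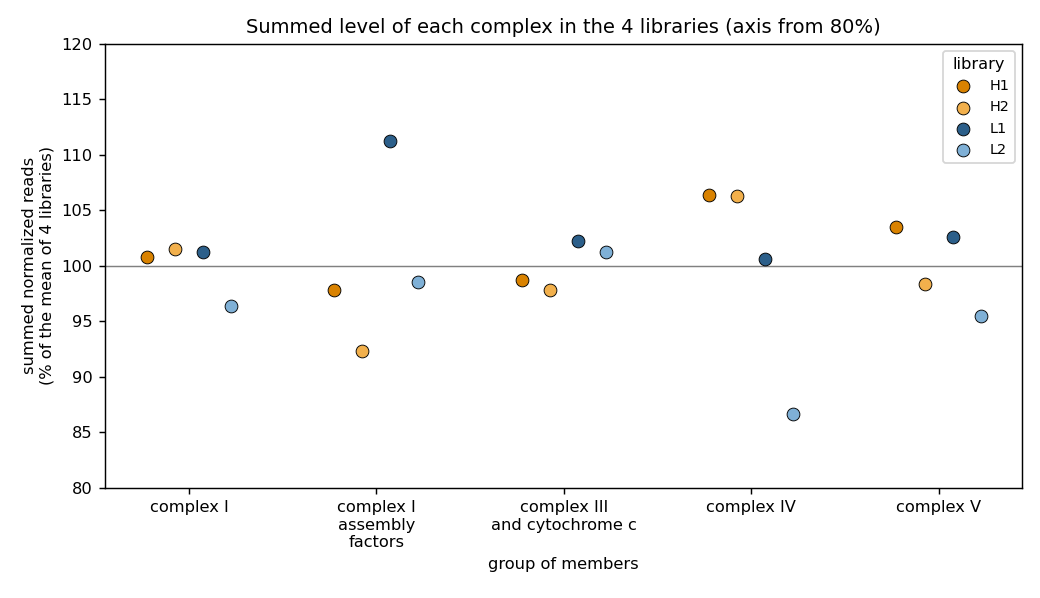
Summed normalized reads of each group of genes in each library, as percent of the mean of the 4 libraries (vertical axis from 80%); orange points are Lncenc1-high and blue points Lncenc1-low. Complex IV spans 106% in both high libraries to 86.6% in L2, with L1 at 101%, while complexes I and V stay between 95.5% and 103%. The sum of complex V covers 16 genes. It leaves out Atp5b, whose reads per library were not recovered and whose deposited mean of 36607 is the highest of the respiratory genes.

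Cox5a (ENSMUSG00000000088.6), a nuclear subunit on the matrix side of the enzyme that joins early in its assembly, was lower in Lncenc1-high. Its normalized reads were 369 (H1) and 472 (H2) in Lncenc1-high, against 934 (L1) and 703 (L2) in Lncenc1-low. The lower of the low libraries exceeds the higher of the high ones, and the group means were 420.1 ± 72.9 in Lncenc1-high and 819 ± 163 in Lncenc1-low (SD, n = 2 each). In the authors' deposited table the log2 fold change was -0.97 ± 0.27 (SE, DESeq2 adjusted p = 0.028), with a 95% interval from -1.49 to -0.44. As the groups do not overlap, no refit without 1 library could change the direction, and none kept the call. Dropping H1 gave a log2 fold change of -0.80 (Wald refit adjusted p = 0.558), dropping H2 -1.15 (adjusted p = 0.0648), dropping L1 -0.75 (adjusted p = 0.354) and dropping L2 -1.16 (adjusted p = 0.0816). For comparison, the refits without H1, H2, L1 and L2 called 0.386%, 0.549%, 1.38% and 0.321% of all genes they tested, that with library totals 1.65%, and voom 0.0427%. No near-identical pseudogene copy of Cox5a was found. Its assembly partner Cox4i1, with 4000.2 and 3870.1 normalized reads in Lncenc1-high against 3830.1 and 3333 in Lncenc1-low, and the unrelated matrix-side subunit Cox5b, with 5730.2 and 6002 against 5428 and 4448, were not called (log2 fold changes of 0.14 ± 0.19 and 0.25 ± 0.19, SE, by the authors' deposited table).

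Ndufa4l2 (ENSMUSG00000040280.9), the paralog of Ndufa4 known as a target of hypoxia-inducible factors, was higher in Lncenc1-high. It had 96.0 (H1) and 128 (H2) normalized reads in Lncenc1-high, against 27.1 (L1) and 29.7 (L2) in Lncenc1-low, from 187 and 102 reads against 22 and 24. The groups are far apart for so few reads in the low pair, with means of 112 ± 22.6 in Lncenc1-high and 28.4 ± 1.8 in Lncenc1-low (SD, n = 2 each). The log2 fold change in the authors' deposited table was 1.97 ± 0.56 (SE, DESeq2 adjusted p = 0.0337), with a 95% interval from 0.88 to 3.07. For Ndufa4l2, leaving out H1, H2, L1 or L2 gave adjusted p-values of 0.152, 0.384, 0.176 and 0.318 in the Wald refit, with log2 fold changes between 1.76 and 2.17. Ndufa4 itself had 3715 and 4052 normalized reads in Lncenc1-high, against 3432 and 2653 in Lncenc1-low, without overlap (log2 0.35 ± 0.20, SE, in the authors' deposited table, DESeq2 adjusted p = 0.694). Per kilobase, Ndufa4l2 made up 1.24% and 1.51% of the sum of the 2 paralogs in Lncenc1-high, against 0.381% and 0.538% in Lncenc1-low, so Ndufa4 carried nearly all of it in every library.

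Cox7a2l, which tethers complex III to complex IV in supercomplexes, had 1951 and 1928 normalized reads in Lncenc1-high, against 1428 and 1351 in Lncenc1-low. Each pair is tight and the pairs do not overlap, with means of 1939.7 ± 16.4 in Lncenc1-high and 1390 ± 54.8 in Lncenc1-low (SD, n = 2 each). The deposited test did not call it: the log2 fold change in the authors' deposited table was 0.48 ± 0.20 (SE, unadjusted p = 0.0152, DESeq2 adjusted p = 0.324). It has 1 near-identical pseudogene copy that was no row of the table. Cox6b1, which links the monomers of the oxidase on the side of the intermembrane space, had 2207 and 2169 in Lncenc1-high, against 1771 and 1226 in Lncenc1-low, with L2 the lowest. Its log2 fold change was 0.55 ± 0.23 (SE, unadjusted p = 0.0164, DESeq2 adjusted p = 0.34) in the authors' deposited table.

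**Figure D4:**
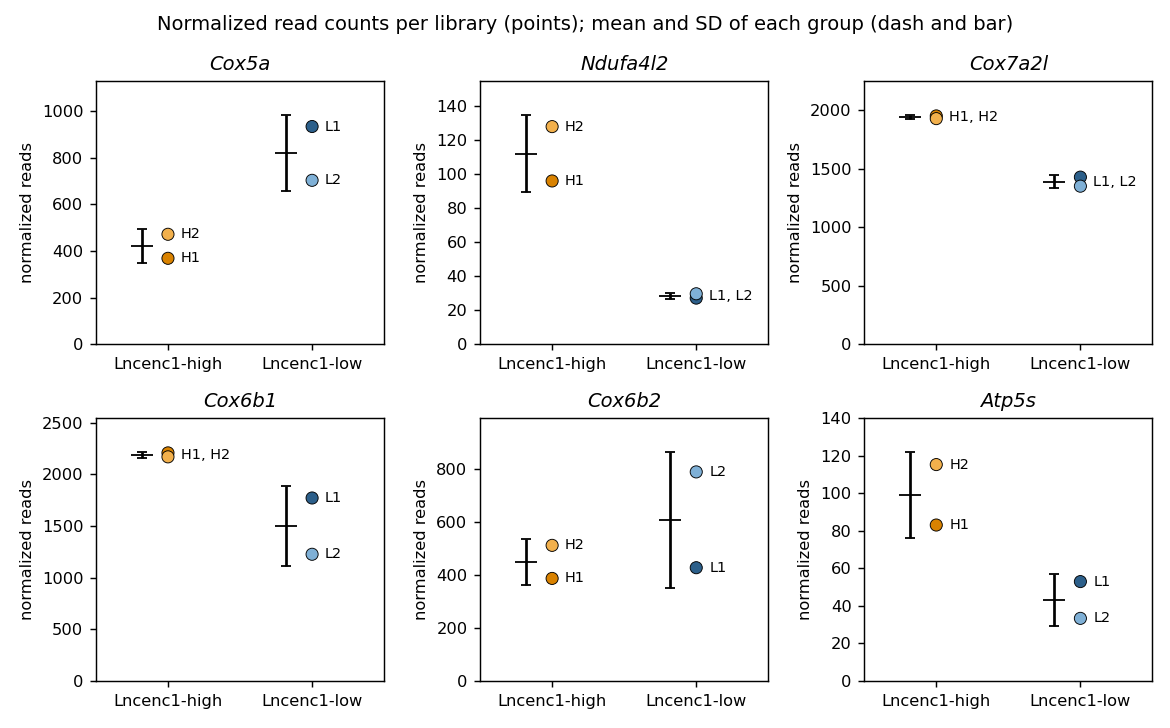
Normalized reads (vertical axes from 0) of 6 genes in the 4 libraries, with the mean and SD of each group of 2 libraries. Cox5a is lower and Ndufa4l2 higher in Lncenc1-high without overlap; Cox6b2 overlaps, with L2 at 787 as its highest value.

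Several complex IV subunits come as tissue isoforms, and for 4 families nearly all reads came from the ubiquitous form. Cox4i1, Cox6a1, Cox7b and Cox8a each made up at least 97.7% of their family's normalized reads per kilobase in every library. Their partners were scarce: Cox4i2, a lung and hypoxia isoform, had 11 and 6 reads in Lncenc1-high and 3 and 0 in Lncenc1-low, and the muscle form Cox8b had 5 and 2 against 1 and 0. The muscle form Cox6a2 had 3 and 0 reads in Lncenc1-high and the testis form Cox8c 2 and 0, and both had 0 and 0 in Lncenc1-low. All of these are reads before normalization, and H1 is the deepest library (size factor 1.95, against 0.797, 0.811 and 0.809). In normalized reads per kilobase, Cox4i2 had 7.77 and 10.4 in Lncenc1-high and 5.09 and 0 in Lncenc1-low. These 4 genes had no deposited adjusted p, and a count of 0 allows up to 3 reads, which is 1.54 normalized reads in H1, 3.76 in H2, 3.70 in L1 and 3.71 in L2. Cox7b2, a testis form, was tested at 26.7 and 10.04 normalized reads in Lncenc1-high against 11.1 and 0 in Lncenc1-low, which overlap, and was not called.

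Cox6b2 and Cox7a1, isoforms known from testis and muscle, were well detected. Cox6b2 had 386 and 511 normalized reads in Lncenc1-high, against 426 and 787 in Lncenc1-low, and its log2 fold change, -0.44 ± 0.32 (SE) by the authors' deposited table, did not pass the test (DESeq2 adjusted p = 0.837). Per kilobase it made up 18.9% and 23.8% of Cox6b in Lncenc1-high, against 24.2% and 46.0% in Lncenc1-low, where L2 alone stands apart through a low Cox6b1 and a high Cox6b2. In the Cox7a family, Cox7a2l took 59.5% and 62.0% in Lncenc1-high and 52.7% and 58.6% in Lncenc1-low. Cox7a1 took 27.4% and 17.9% in Lncenc1-high and 24.7% and 22.3% in Lncenc1-low. Cox7a2, the ubiquitous form, took 13.1% and 20.1% in Lncenc1-high and 22.6% and 19.2% in Lncenc1-low, and the groups overlap.

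**Figure D5:**
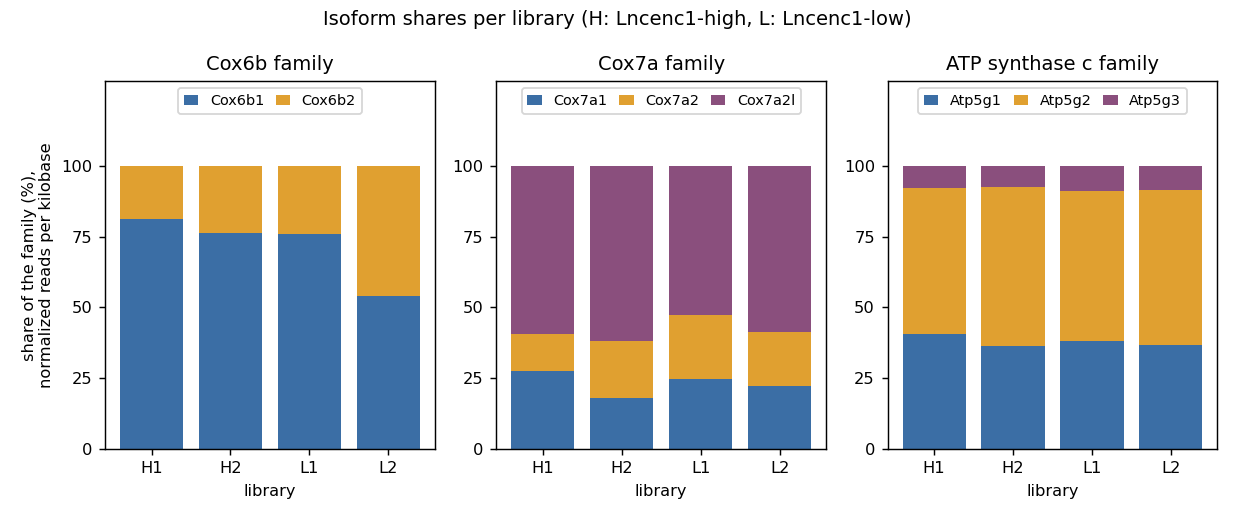
Share of each isoform in its family's normalized reads per kilobase of transcript (stacked bars, percent) in the libraries H1, H2, L1 and L2, for Cox6b, Cox7a and subunit c of the ATP synthase. Cox6b2 reaches 46.0% in L2 against 18.9% to 24.2% in the other libraries, while the c subunit genes keep nearly the same shares.

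Other highly expressed subunits of complex IV were not called. Ordered by p, Cox8a had 4508 and 3945 normalized reads in Lncenc1-high, against 3665 and 3240.4 in Lncenc1-low, and Cox6a1 had 3109 and 2946 in Lncenc1-high, against 2729.6 and 2555 in Lncenc1-low. Neither overlapped between groups, and the authors' deposited table gives log2 fold changes of 0.29 ± 0.19 and 0.20 ± 0.19 (SE), neither called. Cox7b was level, at 2064 and 2025 in Lncenc1-high, against 2043 and 2089.8 in Lncenc1-low. Cox6c and Cox7c, the 2 complex IV genes not named above by rule, lay at 0.18 and -0.09 (log2 fold change, the authors' deposited table).

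Complex V makes ATP, and its genes were the most abundant of those described. None of the 17 was called by DESeq2 or voom and 1, Atp5s, had an unadjusted p under 0.05; the median log2 fold change in the authors' deposited table was 0.10 (12 positive, 5 negative), and 15 intervals lay within 2-fold. That median was 0.002 without L2, 0.06 without H1 and 0.17 without L1. The catalytic head has alpha and beta subunits: Atp5a1 had 24912 and 23623 normalized reads in Lncenc1-high, against 24613 and 26037 in Lncenc1-low, which overlap. For Atp5b the reads per library could not be recovered, and the authors' deposited table gives a mean of 36607 and a log2 fold change of 0.10 ± 0.18 (SE, DESeq2 adjusted p = 0.995). Per kilobase, Atp5a1 stood at 10082 and 9560.3 in Lncenc1-high and 9961 and 10537 in Lncenc1-low, and Atp5g2 at 9504 and 10144 against 9582 and 8189.

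The c subunit, whose ring turns in the membrane, is made from 3 genes with the same mature protein. Atp5g2 took 51.8% and 56.2% of their reads per kilobase in Lncenc1-high and 53.1% and 55.0% in Lncenc1-low, Atp5g1 40.5% and 36.4% against 37.9% and 36.6%, and Atp5g3 7.64% and 7.37% against 9.003% and 8.37%. The order of the genes was the same in all 4 libraries, and the shares of Atp5g1 and Atp5g2 overlap between groups. Atp5g2 has 2 near-identical pseudogene copies and Atp5h 3, of which 1 each, Gm10175 and Gm10250, were rows of the table of their own.

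Atp5s, coupling factor B, had 83.2 and 115 normalized reads in Lncenc1-high, against 53.0 and 33.4 in Lncenc1-low. Both high libraries exceed both low ones at these low counts, and the log2 fold change, 1.19 ± 0.56 (SE) by the authors' deposited table, had an unadjusted p of 0.0321 and did not pass the test (DESeq2 adjusted p = 0.476). Atp5e, the epsilon subunit of the central stalk, had 76.0 and 79.0 in Lncenc1-high, against 25.9 and 71.7 in Lncenc1-low, with L1 alone low. Atp5d, the delta subunit beside it, had 798 and 729 in Lncenc1-high, against 932 and 869 in Lncenc1-low (log2 -0.24 ± 0.23, SE, in the authors' deposited table, DESeq2 adjusted p = 0.949). The 9 other complex V genes lay between -0.23 and 0.16 on the log2 scale of the authors' deposited table, with unadjusted p-values of at least 0.333.

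Among genes around the chain 1 was called, the carrier Slc25a4. The lists below hold 4, 19, 6, 3, 6, 11, 13 and 7 tested genes. Over all of them 1 call lies near the share of 1.53% of all tested genes. Succinate dehydrogenase, complex II, had 4 of 4 positive fold changes, 0 calls by DESeq2 or voom and 0 unadjusted p-values under 0.05, with a median log2 fold change of 0.15 in the authors' deposited table. Of the assembly factors for other steps, 0 of 19 tested for complex IV, 0 of 6 for complex III, 0 of 3 for the ATP synthase and 0 of 6 further ones for complex I were called by DESeq2 or voom, with medians of 0.01, 0.10, -0.01 and 0.09 in the authors' deposited table. Of these assembly factors 1 had an unadjusted p under 0.05, Nubpl. This gene, which delivers iron-sulfur clusters to complex I, had 128 and 156 normalized reads in Lncenc1-high, against 258 and 224 in Lncenc1-low. Its log2 fold change, -0.77 ± 0.36 (SE) by the authors' deposited table, missed the threshold (DESeq2 adjusted p = 0.463).

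Regulators of respiratory genes gave 0 calls among 11 tested, with 0 at an unadjusted p under 0.05 and 0 by voom, and the authors' deposited table gives a median log2 fold change of -0.04 for them. Nrf1 had 2069 and 2120.1 normalized reads in Lncenc1-high, against 1829 and 1713 in Lncenc1-low, Gabpa 3420.1 and 3602 against 3598 and 2817, and Yy1 919 and 975 against 971 and 1028. Tfam, which packages and transcribes mitochondrial DNA, had 714 and 846 in Lncenc1-high, against 1049.9 and 816 in Lncenc1-low. The coactivator Ppargc1a was near 0, with 0 and 6.27 normalized reads in Lncenc1-high and 3.70 and 0 in Lncenc1-low.

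Among the 13 mitochondrially encoded subunits 0 were called by DESeq2 or voom, 2 had an unadjusted p under 0.05 and 11 were positive, with a median log2 fold change of 0.22 in the authors' deposited table. The lowest unadjusted p-values were 0.0131 for mt-Atp8 (974 and 843 normalized reads in Lncenc1-high, 541 and 659.9 in Lncenc1-low) and 0.031 for mt-Nd6 (863 and 652 against 1375 and 895), both from the authors' deposited table. Of the 7 genes for nucleotide exchange and uncoupling, 1 was called. Slc25a4, the muscle-type ADP/ATP carrier, had 1944 and 1893 normalized reads in Lncenc1-high, against 3369 and 2965 in Lncenc1-low. Both low libraries exceed both high ones, and the log2 fold change in the authors' deposited table was -0.72 ± 0.19 (SE, DESeq2 adjusted p = 0.02). Voom did not call it (voom adjusted p = 0.181). Without H1, H2, L1 or L2 the log2 fold change of Slc25a4 in the Wald refit was -0.74, -0.70, -0.63 and -0.81, and the call was lost. The sign could not change, because the groups do not overlap. Slc25a5, the carrier of dividing cells, had 4669 and 4531 in Lncenc1-high, against 5743 and 4275 in Lncenc1-low, which overlap.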

How the data were processed

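RNA-seq of 4 libraries (2 shCtrl, 2 shLincenc1) was processed by the submitters with TopHat2, HTSeq and DESeq2 1.8.2 on mm9, per the submitters' processing notes; the annotation and the strand setting of the counting were not given in the sources used here. Per the file headers, the deposited table holds the mean normalized count (a signal over all libraries after size factors), the log2 fold change with its SE, the Wald statistic (a score), and the p-value and adjusted p-value, all computed by the authors. The unit is no count per library, so no count test of the deposited values was run; a gene was called at the deposited adjusted p under 0.05, adjusted over 14070 genes.

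Reads per library were recovered by finding the whole-number combination that gives the deposited mean to 15 digits and, refitted, the deposited fold change. This worked for 19814 of 19840 genes (99.9%); the other 26 hold 13.6% of the summed mean. Of 14039 refitted tested genes, 13902 matched the deposited fold change within 1e-05. That match was also the rule for choosing among several combinations, so for those genes it is no separate check. A single combination was accepted within 0.001, or without this match where a library had under 1 expected read. Tested on simulated data, 17018 of 17027 genes gave an answer and all 17018 were right. Size factors were 1.95 (H1), 0.797 (H2), 0.811 (L1) and 0.809 (L2). The numbers 1 and 2 only name libraries, and floors cover counting error only. The 95% intervals come from the deposited SE, which takes in the spread between libraries. A Wald refit with the dispersion implied by the deposited SE served to leave out libraries, and limma 3.58.1 (voom, R 4.3.3) served as another test. A check on simulated data of this comparison covered 14039 genes of all levels, with the refit given the dispersions used to draw them. Of the genes changed 1.5-fold, the 4-library refit called 4% and voom 4%. Of those changed 2-fold, the 4-library refit called 42% and voom 34%. At a 4-fold change the shares were 62% and 54%. Among unchanged genes the 4-library refit called 5 and voom 34.

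Symbols were matched by Ensembl identifier (19707 of 19840). GENCODE M21 (GRCm38) gave names, transcript lengths and, with BLAST 2.17.0, pseudogene copies of at least 95% identity over at least 100 bases, which 24 of the 91 genes had; its coordinates belong to another build than the deposited table and are printed for promoters alone. Named genes were all called genes, the 3 with the smallest p and the 2 with the highest mean in each of the 5 groups, all members of isoform families, and those with an unadjusted p under 0.05; genes printed to illustrate a range were added after their values were seen. The genes, lists and tests were chosen with earlier results of these data known. Alternatives were library totals in place of size factors, no filter on low means, a mean of at least 50, a threshold of 0.1, voom, and leaving out each library.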

Additional observations from a re-analysis of the deposited data

How the results depend on the processing

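Over all genes, 215 calls became 6 with voom and between 45 (without L2) and 193 (without L1) when 1 library was left out (54 without H1, 77 without H2); library totals gave 231, no filter 178, a mean of at least 50 195, and a threshold of 0.1 301. Of the respiratory genes, 2 were called as deposited, and 2 at a threshold of 0.1. With voom 0 were called, and the number without 1 library ranged from 0 to 0; both counts are those of complex IV as well. With voom 5 of the 87 had an unadjusted p under 0.05. The adjusted p of Cox5a was 0.224 with voom and that of Ndufa4l2 was 0.29. Without 1 library, which leaves 1 in its group, the log2 fold change of Cox5a ranged from -1.16 to -0.75. That of Ndufa4l2 ranged from 1.76 to 2.17. How far the smaller number of libraries accounts for the lost calls was not tested. T, a mesendoderm marker, kept its call without H1 or L1 and lost it without H2 or L2, with log2 fold changes of 1.60 and 2.06. Voom did not call T (voom adjusted p = 0.406).

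Without 1 library the median log2 fold change over all respiratory genes ranged from 0.015 to 0.11, that of the assembly factors from -0.21 to -0.07, that of complex IV from 0.135 to 0.25 and that of complex V from 0.002 to 0.17. The median of complex I was 0.05 as deposited, 0.019 with library totals and 0.016 to 0.092 without 1 library, and that of complex III and cytochrome c was 0.00 as deposited and -0.054 to 0.013 without 1 library. The cause was not tested. Library totals moved the median of all genes to -0.04. No filter on low means and a mean of at least 50 keep the deposited fold change and re-adjust p alone, so direction could not change there. Of 272 values of single genes under the alternatives, these included, 252 kept their direction and side of the threshold. Another 10, those of Cox5a and Ndufa4l2 with voom and without 1 library, kept their direction and lost the call. The other 10 changed sign, in 7 genes that were called in neither case: Atp5g3 and Ndufaf4 without L1, Cox6b2 and Cox7b without L2, Cox7a1 without H1, Cox7a2 without H1 or L1, and Uqcrc2 without H2, without L2 and with library totals (-0.018). Without 1 library the log2 fold change of Atp5g3 ranged from -0.25 to 0.13, of Ndufaf4 from -0.44 to 0.037, of Cox6b2 from -0.82 to 0.069, of Cox7b from -0.032 to 0.00089, of Cox7a1 from -0.087 to 0.60, of Cox7a2 from -0.29 to 0.25 and of Uqcrc2 from -0.01015 to 0.036.

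No paired analysis was possible because the deposited table carries no replicate numbers. Ndufb2, Atp5e and Atp5s, with means of 54.6, 63.1 and 71.2 normalized reads, are the genes of complexes I and V with intervals beyond 2-fold. In complex IV 11 of 16 intervals and among the assembly factors 5 of 8 stayed within 2-fold. How far depth or the spread between libraries widens the intervals was not tested.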
